A study of Drosophila melanogaster with 6 samples.

Results

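C/D methylation guide snoRNAs are small nucleolar RNAs that direct 2'-O-methylation of other RNAs. They were taken from the deposited tables as all loci whose gene names every one start with snoRNA:Me, which gave 83 of 15904 loci. Of these, 26 are named for a position in 18S rRNA, 54 for a position in 28S rRNA and 3 for a spliceosomal snRNA (U2 or U6). A further 10 loci that join such a name with another gene were left out, because their value cannot be divided.

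The RNA came from eye discs, the larval epithelium that forms the adult eye, of Drosophila melanogaster larvae at the wandering stage late in the third instar. The genotypes in the labels give all 3 groups the w1118 background, the sev-GAL4 driver and a UAS-GFP transgene. The first group adds a transgene for RNAi against Hsromega, the second adds EP3037, through which the driver is meant to raise Hsromega, and the third is the control without either. Hsromega is a long non-coding RNA gene. Each library was made from 30 pairs of discs with a stranded total RNA kit after removal of ribosomal RNA, with paired reads of 50 nt. The sev driver is active in a subset of retinal cells, whereas whole discs were measured, and in such bulk samples fewer cells of a type and less RNA per cell cannot be told apart. The labels do not say whether the 2 libraries of a group were made from different animals, and the deposited p-values may reflect technical spread alone.

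A C/D guide carries the conserved boxes C and D and a stretch complementary to its target, and it is bound by the methyltransferase Fibrillarin with Nop56, Nop58 and a 15.5 kDa protein. The nucleotide paired at a fixed distance from box D receives the methyl group. In flies most guides are cut out of the introns of host genes, many of which encode ribosomal proteins or are spliced non-coding RNAs of the Uhg type. H/ACA guides, the other large class, direct pseudouridylation.

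Hsromega itself was at an FPKM of 204 in RNAi-labelled, 376 in overexpression-labelled and 202 in control discs, and the authors' deposited Cuffdiff table calls neither difference (q = 0.997 and 0.758). The RNAi label was thus not borne out by the level in whole discs, so the groups are named by their labels and every direction given for RNAi is that of the labelled discs. All 10 eye disc markers were at an FPKM of 1 or more in each group, with sums of 129, 109 and 261; of these, gl and lz were called lower in overexpression-labelled discs. The 6 salivary gland markers summed to 3171 in RNAi-labelled, 79.5 in overexpression-labelled and 46.4 in control discs, the 6 fat body markers to 169, 87.2 and 39.2, and the 3 gut markers to 4.07, 150.4 and 2.46. Of them, 3 salivary gland and 4 fat body markers were called higher in RNAi-labelled discs and all 3 gut markers in overexpression-labelled discs. The summed levels were thus unequal between the groups, and their part in the guide values was not tested.

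By name, 33 of the guides address an adenosine, 23 a guanosine, 17 a cytidine and 10 a uridine. A total of 59 guides matched a gene of the Ensembl annotation (dm6) by name, and 24 did not. Of the 59, 27 lie on chromosome 2R, 18 on 3L, 6 on 2L, 5 on 3R and 3 on X. Their annotated length was 46 to 116 nt with a median of 79 nt, against 124 to 268 nt with a median of 140 nt for the 105 H/ACA guides that matched. A host gene on the same strand contained 58 of the 59, and 57 of these lay in an intron of it. The host was non-coding for 32 guides, a ribosomal protein gene for 13 and another protein-coding gene for 13. The exception without a host was snoRNA:Me18S-A1806 on chromosome 3L (7639717 to 7639794), and snoRNA:Me28S-C2645c overlapped an exon of Uhg3.

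Fewer than 60% of the C/D guides were listed above 0 in any group. The number above 0 was 43 of 83 in the RNAi-labelled discs, 45 in the overexpression-labelled discs and 48 in the control discs, or 51.8%, 54.2% and 57.8%. Of the 83, 30 were above 0 in all groups, 12 in 2 of them, 22 in a single group and 19 in none. Guides above 0 in a single group were found in each group: 5 in RNAi-labelled, 7 in overexpression-labelled and 10 in control discs. The H/ACA guides were above 0 for 105, 104 and 102 of 108 loci in RNAi-labelled, overexpression-labelled and control discs. The other snoRNA loci, which include further C/D snoRNAs under U names, were above 0 for 47, 47 and 48 of 58. The C/D guides are also the shorter class, and the part of length in these shares was not tested.

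**Figure D1:**
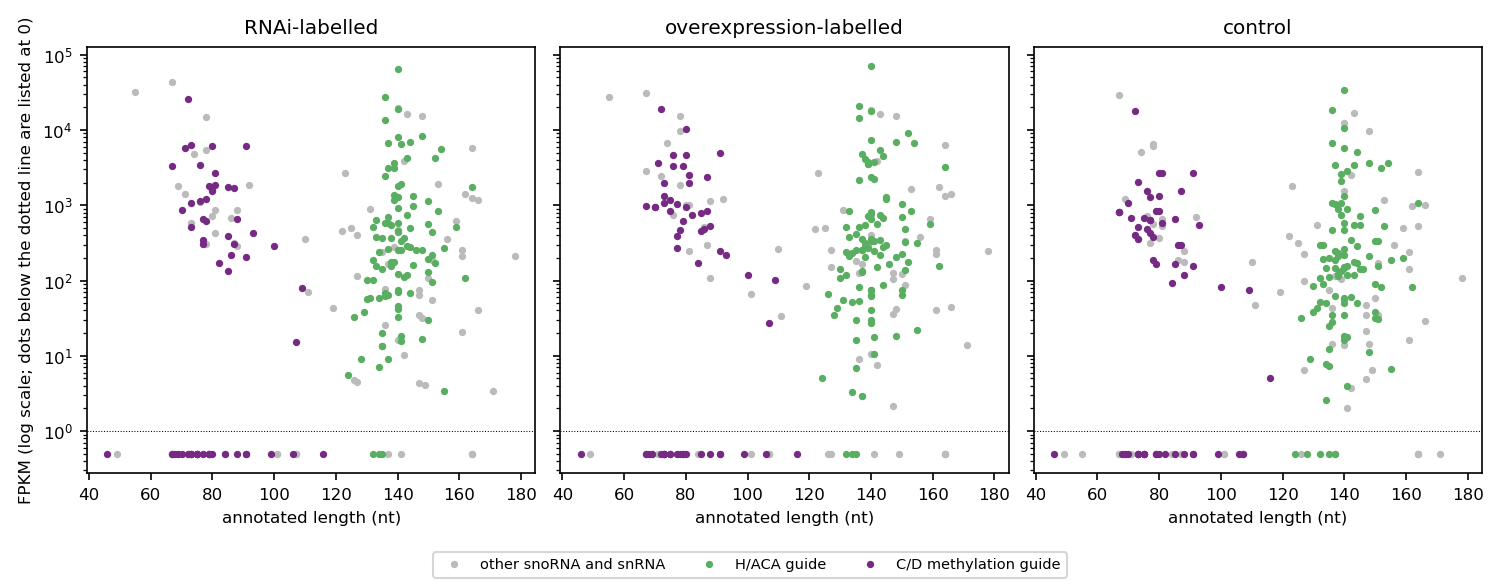
FPKM (log axis) of all snoRNA and snRNA loci with a single name, up to 180 nt, against their annotated length, in the RNAi-labelled, overexpression-labelled and control discs; each dot is a locus and dots below the dotted line are listed at 0. The C/D guides lie at 46 to 116 nt, and the lowest value above 0 becomes smaller as length grows.

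Some values of these short loci repeated or stood in simple ratios at a given length. Among guides above 0 with an annotated length, few equalled another locus of the same length. They numbered 1 of 34 in RNAi-labelled, 0 of 37 in overexpression-labelled and 5 of 38 in control discs. Ratios were examined at 77 nt in control discs alone. In the control discs, 4 of the 7 snoRNA or snRNA loci of 67 nt that matched the annotation had the same FPKM of 813, among them snoRNA:Me18S-A28a and snoRNA:Me28S-G2173. At 77 nt, the control values of snoRNA:Me28S-A982a, snoRNA:Me28S-A982b and snoRNA:Me28S-C3351 were 425, 637 and 1274, close to a ratio of 2 to 3 to 6. Of the other loci of that length, snoRNA:Me28S-G3277a repeated the 637, while snoRNA:snR38:54Ec, at 314, was 0.74 times snoRNA:Me28S-A982a and did not fall on such a ratio. The lowest value above 0 among loci of 60 to 79 nt was 308 in the RNAi-labelled, 268 in the overexpression-labelled and 166 in the control discs. Among loci of 120 to 150 nt, the size of most H/ACA guides, it was 4.15, 2.18 and 2.00. The lowest listed level was therefore far higher in FPKM for loci of 60 to 79 nt than for H/ACA-sized loci. It lay between them for loci of 80 to 93 nt (134, 109 and 92.1) and of 94 to 110 nt (15.4, 27.5 and 75.2). Over all guides, matched or not, the lowest value above 0 was 6.48, 8.05 and 2.46. These values belong to guides without an annotated length, so they cannot be set against a length. Over the matched guides it was 15.4, 27.5 and 5.10, the first 2 at 107 nt and the last at 116 nt. A guide such as snoRNA:Me28S-A982b, at 309 in RNAi-labelled discs, can stand at the lowest value listed for its length, and a listed 0 does not place a guide below an H/ACA guide.

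Where the comparison could be made, most guides above 0 were within 3 times the lowest value for their length. That lowest value was taken over few loci and could be the guide's own. At 86 nt, for example, 2 loci were above 0 in each group. Some guides therefore stand at the lowest value by construction, and the counts do not show that guides are low. Among the guides that had another locus above 0 at their length, 7 of 26 in the RNAi-labelled, 11 of 30 in the overexpression-labelled and 10 of 30 in the control discs stood at the lowest value for that length. Those at no more than 3 times the lowest numbered 16, 18 and 19. The median was 2.16, 1.58 and 1.78 times the lowest. The highest such multiple in the control discs was 44.2, for snoRNA:Me18S-C1831. The fragments behind a value are not given, so the multiples only rank values within a length and carry no interval.

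snoRNA:Me18S-C1831 was the highest guide in every group. It lies in an intron of RpL27A, a large-subunit ribosomal protein gene (chromosome 2L, 4457603 to 4457674, minus strand, 72 nt). Its FPKM was 25615 in RNAi-labelled, 19124 in overexpression-labelled and 18016 in control discs, where its host stood at 2734, 2984 and 2054. The groups differed by less than 1.5-fold for this guide, and the authors' deposited table gives a Cuffdiff q of 0.992 for RNAi and 0.995 for overexpression.

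The guides next in level were lower in every group, the nearest being snoRNA:Me28S-U1848 at 10235 in overexpression-labelled discs. By their mean over the groups, the 18S guides that followed were snoRNA:Me18S-A1061, snoRNA:Me18S-U1356b, snoRNA:Me18S-A28a and snoRNA:Me18S-G1952. The highest 28S guides were snoRNA:Me28S-U1848, snoRNA:Me28S-G2703a, snoRNA:Me28S-A1322, snoRNA:Me28S-A992 and snoRNA:Me28S-C3227b. snoRNA:Me28S-A1322, in an intron of the translation elongation factor gene Ef1alpha48D (chromosome 2R, 11893123 to 11893195), was at 6229 in RNAi-labelled, 1963 in overexpression-labelled and 2041 in control discs. snoRNA:Me28S-U3344b, in an intron of CG1518, annotated as the oligosaccharyltransferase gene Stt3A, was at 2668, 1947 and 2718 and was second in the control discs. Neighbours in this order cannot be separated, since the groups hold no spread between libraries.

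**Figure D2:**
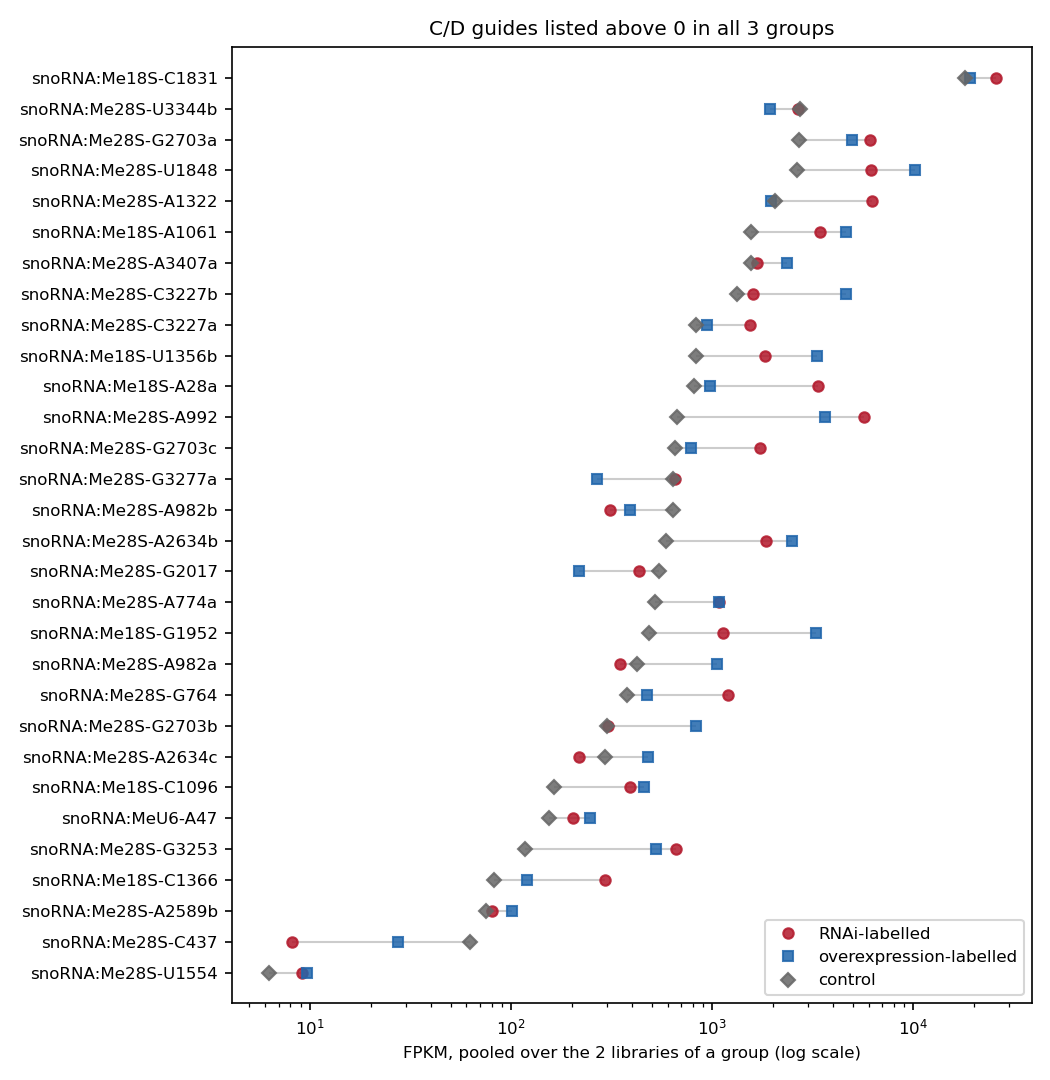
FPKM (log axis) of the 30 C/D guides listed above 0 in all groups, ordered by their control value; circles are RNAi-labelled, squares overexpression-labelled and diamonds control discs, each pooled over 2 libraries. snoRNA:Me18S-C1831 stands above the rest, and in most rows the control diamond lies at the left.

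No guide was called in the RNAi-labelled discs, although most detected guides had higher values there than in the control. The authors' deposited Cuffdiff table called 0 of 57 tested guides at q of 0.05 or less, against 0.822% of all tested loci. None was called higher, against 0.212% of all loci, and none lower, against 0.61%. At an unadjusted p of 0.05 or less there were 0 guides, against 4.5% of all tested loci, and Benjamini-Hochberg recomputed over the table gave 0 as well, against 0.124%. The smallest deposited p was 0.0902, with q = 0.427, for snoRNA:Me28S-A771, which was listed at 0 in RNAi-labelled and at 679 in control discs. The deposited test gave no usable error for these loci: the log2 ratio divided by its statistic ran from 0.0194 to 112 over the guides with both values.

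Of the 30 guides above 0 in all groups, 24 were higher and 6 lower in RNAi-labelled than in control discs, with a median log2 ratio of 0.98. Among those with a mean FPKM of 50 or more, the guides with the largest increases in value were snoRNA:Me28S-A992, snoRNA:Me28S-G3253, snoRNA:Me18S-A28a and snoRNA:Me18S-C1366. snoRNA:Me28S-A992 (chromosome 2R, 14623276 to 14623346, 71 nt) stood at 5690 in RNAi-labelled and 669 in control discs, a log2 ratio of 3.09 with a deposited Cuffdiff q of 0.769. snoRNA:Me28S-G3253, in an intron of the small-subunit ribosomal protein gene RpS9 (chromosome 3L, 9510720 to 9510807), was at 657 and 118, a log2 ratio of 2.48. An antisense gene overlaps this guide, and the sources used here do not state whether counting used strand. snoRNA:Me18S-A28a (chromosome 2R, 17703102 to 17703168), in Uhg1, was at 3366 and 813. Both of its values were the lowest above 0 for 67 nt in their group. At that length, 2 loci were above 0 in RNAi-labelled and 5 in control discs.

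Under the same limits, the guides with the largest decreases in value were snoRNA:Me28S-A982b, snoRNA:Me28S-A2634c, snoRNA:Me28S-G2017 and snoRNA:Me28S-A982a. snoRNA:Me28S-A982b was at 309 in RNAi-labelled and 637 in control discs, a log2 ratio of -1.05. The other three were at 218, 433 and 347 in RNAi-labelled and at 293, 541 and 425 in control discs, in that order. snoRNA:Me28S-C437, below the level set for naming and chosen after its values were seen, was at 8.15 and 62.8. None of these passed the deposited test.

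Over the 63 guides with a mean FPKM of 1 or more over the groups, 28 were 2-fold or more higher and 15 were 2-fold or more lower in RNAi-labelled than in control discs. The shares were 44.4% and 23.8%, against 3.89% and 10.9% of all 9520 loci past the same filter. Other small RNA classes also exceeded all loci in 1 or both directions. The shares were 30.5% and 1.9% for 105 H/ACA guides, and 26.0% and 35.6% for 73 microRNA loci. Of the 28, 9 were listed at 0 in control discs, and of the 15, 13 were listed at 0 in RNAi-labelled discs. The difference in shares from the other loci was not tested. With guides at 0 kept through the pseudocount, the median log2 ratio was 0.39, against -0.03 over all loci. Over the 34 guides above 0 in both groups it was 1.14, with 28 of them higher in RNAi-labelled discs. Without the guides of the host Uhg5 the median over the remaining guides past the filter was 0.04.

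In the overexpression-labelled discs no guide was called either. The authors' deposited Cuffdiff table called 0 of 59 tested guides, against 1.2% of all tested loci. None was called higher, against 0.132%, and none lower, against 1.06%. There were 0 guides at an unadjusted p of 0.05 or less, against 6.16%, and 0 after Benjamini-Hochberg was recomputed, as for all other loci of the table (0%). The smallest deposited p was 0.0873, with q = 0.419, for snoRNA:Me28S-G3255b, at 734 in overexpression-labelled discs and listed at 0 in control discs. The log2 ratio divided by the statistic ran from 0.0385 to 180.

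Among the guides above 0 in all groups, 24 had higher and 6 lower values in overexpression-labelled than in control discs, with a median log2 ratio of 0.66. With a mean FPKM of 50 or more, the largest increases in value were those of snoRNA:Me18S-G1952, snoRNA:Me28S-A992, snoRNA:Me28S-G3253 and snoRNA:Me28S-A2634b. snoRNA:Me18S-G1952 (chromosome 2R, 14622802 to 14622877, 76 nt) was at 3286 in overexpression-labelled and 484 in control discs, a log2 ratio of 2.76 with a deposited Cuffdiff q of 0.798. snoRNA:Me28S-A992 was at 3621 and 669, and snoRNA:Me28S-G3253 at 526 and 118. snoRNA:Me28S-A2634b was at 2496 and 590, a log2 ratio of 2.08.

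Among guides above 0 in all groups with a mean FPKM of 50 or more, the largest decreases in value in overexpression-labelled discs were those of snoRNA:Me28S-G2017, snoRNA:Me28S-G3277a, snoRNA:Me28S-A982b and snoRNA:Me28S-U3344b. snoRNA:Me28S-G2017, in an intron of RpL3 (chromosome 3R, 11224308 to 11224400), was at 218 in overexpression-labelled and 541 in control discs, a log2 ratio of -1.31. The RpL3 row, which also holds snoRNA:Me18S-A425, was at 574 and 1476. The other guide in RpL3, snoRNA:Me18S-C1096, moved the other way in value, with 459 in overexpression-labelled and 164 in control discs. snoRNA:Me28S-C437, below that mean, was at 27.3 and 62.8, and 14 tested guides above 0 in control discs were listed at 0, among them snoRNA:Me28S-G2173, at 813 in control discs. snoRNA:Me28S-G3277a was at 268 and 637, and both values lay within 2.03 times the lowest for 77 nt.

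Of the 63 guides past the filter, 23 were 2-fold or more higher and 16 were 2-fold or more lower in overexpression-labelled than in control discs, or 36.5% and 25.4%. Over all loci past the filter the shares were 4.29% and 12.8%. For H/ACA guides they were 43.8% and 3.8%, and for microRNA loci 19.2% and 43.8%. Of the C/D guides past 2-fold, 11 of the 23 were listed at 0 in control discs and 13 of the 16 in overexpression-labelled discs. The median log2 ratio was 0.43, against 0.04 over all loci. Over the 34 guides above 0 in both groups it was 0.66, with 27 of them higher in overexpression-labelled discs. Without the guides of Uhg5 the median over guides past the filter was 0.27. Both comparisons use the same control values, so a low control value of a guide raises both ratios.

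By target rRNA, 18S guides had the higher medians among detected loci, with few members behind them. In RNAi-labelled over control discs the median log2 ratio was 1.25 over the 11 guides of 18S above 0 in both groups and 0.41 over the 22 of 28S. With guides at 0 included the medians were 1.16 over 19 and 0.04 over 43. In overexpression-labelled over control discs they were 1.48 over 7 and 0.61 over 26, or 0.27 and 0.43 with guides at 0 included, where the order of the targets turned. Among guides above 0 in all groups, 7 of 7 guides of 18S were higher than control in the RNAi-labelled discs and 7 of 7 in the overexpression-labelled discs, and 16 of 22 guides of 28S in each. Of the 18S guides, snoRNA:Me18S-A1061, snoRNA:Me18S-C1366 and snoRNA:Me18S-G1952 share the host Uhg5, and both counts use the same control values. Without the guides of Uhg5, and with guides at 0 included, the medians of 18S and 28S were 1.15 and 0 for RNAi. For overexpression they were 0.04 and 0.38. The difference between the targets was not tested. The annotated median length was 76 nt for 15 guides of 18S and 80 nt for 42 of 28S. Of the 3 spliceosomal guides, snoRNA:MeU6-A47 was at 203 in RNAi-labelled, 247 in overexpression-labelled and 155 in control discs. Each was the lower of the 2 values above 0 at 91 nt, the other being that of snoRNA:Me28S-G2703a. The guides snoRNA:MeU2-A31 and snoRNA:MeU6-C68 were listed at 0 throughout.

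The other snoRNA classes and the snRNA and scaRNA loci also had medians above 0. The medians of microRNA loci depended on how loci at 0 were treated. For H/ACA guides above 0 in both groups, the median log2 ratio was 0.74 over 101 loci for RNAi and 0.84 over 100 for overexpression, with 93 and 91 of them higher than control. For the other snoRNA loci it was 0.54 over 44 and 0.66 over 42. For snRNA loci it was 0.62 over 21 and 0.83 over 20, and for scaRNA loci 0.63 and 0.62, each over 12. For microRNA loci it was 0.05 over 24 and 0.69 over 20, and 0 in each comparison with loci at 0 included. For loci with no small RNA name it was -0.04 over 9133 and 0.03 over 9135. The C/D guides and the H/ACA guides thus both lay above the loci with no small RNA name, and a difference between these 2 guide classes was not tested.

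**Figure D3:**
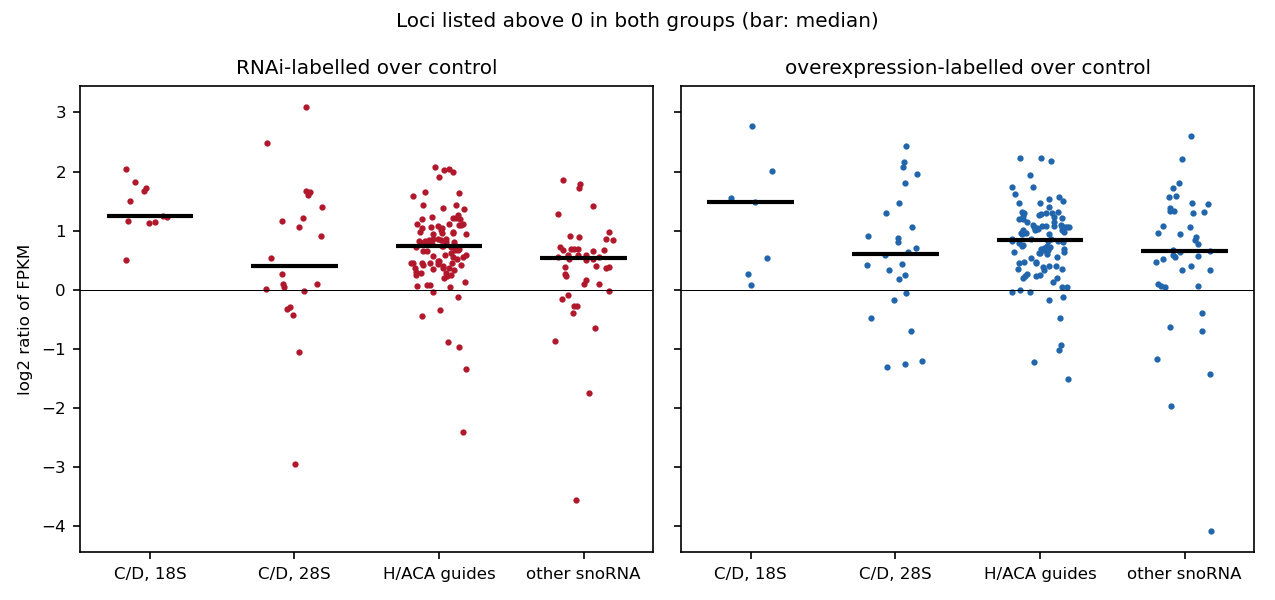
Log2 ratio of FPKM to control (vertical axis) for loci above 0 in both groups, RNAi-labelled at the left and overexpression-labelled at the right, for C/D guides of 18S, C/D guides of 28S, H/ACA guides and other snoRNA loci; each dot is a locus and the bar is the median. All 8 medians lie above 0, at 1.25, 0.41, 0.74 and 0.54 for RNAi and 1.48, 0.61, 0.84 and 0.66 for overexpression.

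The largest cluster of guides lay in Uhg5, a spliced non-coding host on chromosome 2R (14621601 to 14624498). It holds 10 guides, all within its introns by position, with neighbouring starts 232 to 306 nt apart. All 10 were above 0 in every group and all 10 had higher values in RNAi-labelled and in overexpression-labelled than in control discs. Their summed FPKM was 27942 in RNAi-labelled, 33984 in overexpression-labelled and 11252 in control discs. The Uhg5 row was at 70.5, 72.4 and 30.9, a log2 ratio of 1.19 for RNAi and 1.23 for overexpression. It was not called, with q = 0.546 and 0.495 in the authors' deposited Cuffdiff table.

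Within Uhg5 the guides differed widely in level. snoRNA:Me28S-U1848 was at 6147 in RNAi-labelled, 10235 in overexpression-labelled and 2643 in control discs, and snoRNA:Me28S-G2703a at 6054, 4946 and 2702. At the low end, snoRNA:Me18S-C1366, the first guide from the start of the host, was at 292, 119 and 82.5. The ratios to control were uneven along the host. snoRNA:Me18S-A1061 was at 3448, 4614 and 1565. snoRNA:Me28S-C3227a was at 1548, 941 and 829, and its neighbour copy snoRNA:Me28S-C3227b at 1592, 4613 and 1321. Of this pair, the copy a was higher mainly in RNAi-labelled and the copy b mainly in overexpression-labelled discs. snoRNA:Me28S-G2703b was at 302, 830 and 301, so that its RNAi-labelled and control values were nearly equal, and snoRNA:Me28S-G2703c was at 1735, 780 and 656.

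The guides of this host weigh on the counts over all guides. Among the 20 guides above 0 in all groups that lie elsewhere, 14 had higher values than control in the RNAi-labelled and 14 in the overexpression-labelled discs. The guides of Uhg5 come from 1 transcript and are not independent of each other.

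**Figure D4:**
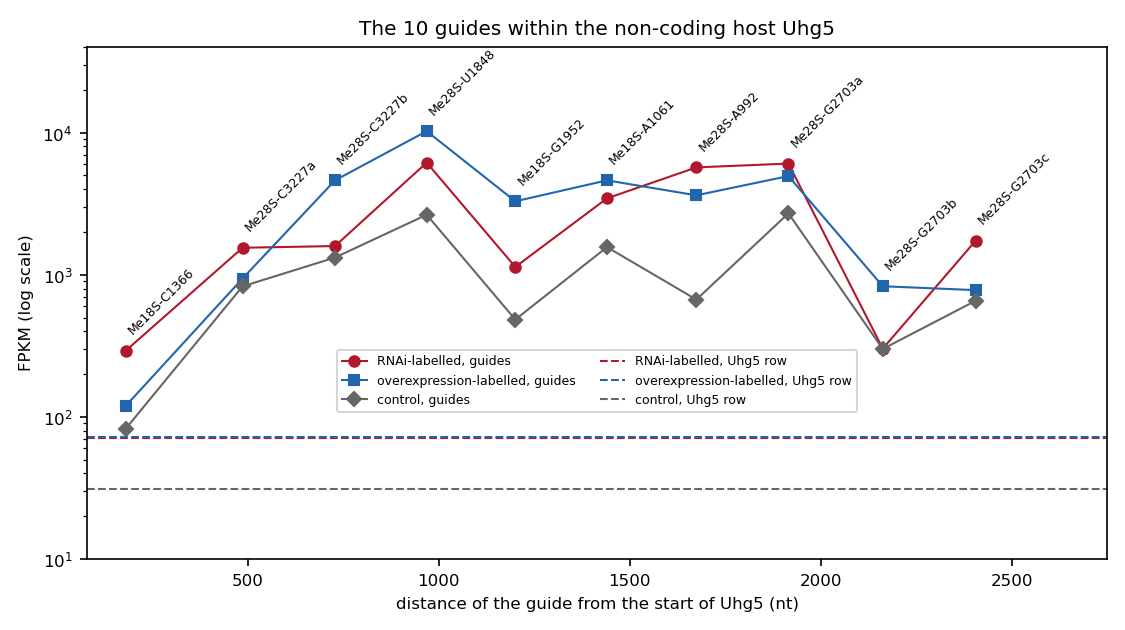
FPKM (log axis) of the 10 guides of Uhg5 against their distance from the start of the host in nt, for RNAi-labelled (circles), overexpression-labelled (squares) and control discs (diamonds); dashed lines give the Uhg5 row of each group. Every guide has its lowest value in the control discs, where the host row is also lowest at 30.9.

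In other hosts, guides and host rows moved alike in some cases and not in others. The host of snoRNA:Me18S-C1831, RpL27A, was 1.33-fold above control in RNAi-labelled discs and the guide 1.42-fold. In overexpression-labelled discs this host was 1.45-fold above control and the guide 1.06-fold. The host of snoRNA:Me28S-G764, Arf79F, was 1.22-fold above control in overexpression-labelled discs and the guide 1.27-fold. In RNAi-labelled discs this host was 1.33-fold above control and the guide 3.19-fold, so each pair was close in 1 comparison only. These pairs and the clusters that follow were chosen after their values were seen. Uhg7 lies within the locus of RpL23A, a large-subunit ribosomal protein gene, and the joint row was at 139 in RNAi-labelled, 105 in overexpression-labelled and 552 in control discs. This row fell in overexpression-labelled discs, with a log2 ratio of -2.40 and q = 0.0223 in the authors' deposited Cuffdiff table, while RNAi gave -1.99 and q = 0.0664. Of its 3 guides, snoRNA:Me28S-A2634b had higher values than control in both groups, at 1850, 2496 and 590. snoRNA:Me28S-A2634c was at 218, 479 and 293, and snoRNA:Me28S-A2634a was listed at 0 in RNAi-labelled and overexpression-labelled discs and at 357 in control discs. The fall of the joint row was thus not seen in the guide with the highest values.

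A cluster of 5 guides lies in introns of Sf3b3, a splicing factor gene listed as CG13900 (chromosome 3L), 4 of them also within the non-coding CR45184. All 5 were listed at 0 in RNAi-labelled discs. snoRNA:Me28S-A771 was at 1191 in overexpression-labelled and 679 in control discs, snoRNA:Me28S-C788b at 944 and 1061, and snoRNA:Me28S-G3113b at 172 and 92.1. snoRNA:Me28S-C788a was at 408 in control discs alone, and snoRNA:Me28S-G3113a was listed at 0 in all groups. None of these differences was called. The row that joins CG13900, CR45184 and snoRNA:Me5.8S-G74 was at 59.4 in RNAi-labelled, 624 in overexpression-labelled and 83 in control discs, with q = 0.967 and 0.676.

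In Uhg1, Uhg4 and Uhg8 the host rows were at most 1.51-fold above control in either group, and several of their guides varied more. Uhg1 was at 19.4 in RNAi-labelled, 22.1 in overexpression-labelled and 16.0 in control discs. Among its 5 guides, snoRNA:Me28S-A3407a was at 1670, 2339 and 1558, while snoRNA:Me28S-A1666a was at 508 in RNAi-labelled discs and at 0 in the others. Uhg4 was at 26.3, 32.2 and 25.2, and its guide snoRNA:Me28S-A982a at 347, 1050 and 425. Uhg8 was at 7.02, 11.2 and 7.45, with snoRNA:Me18S-U1356b at 1821, 3326 and 829.

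Guides in ribosomal protein genes were above 0 about as often as all C/D guides. Of the 13, 6 were above 0 in RNAi-labelled, 7 in overexpression-labelled and 7 in control discs. In RpL28, whose row was at 1462 in RNAi-labelled, 2903 in overexpression-labelled and 2122 in control discs, snoRNA:Me28S-C3351 was at 0 in RNAi-labelled and overexpression-labelled discs and at 1274 in control discs. In RpL15 (2634, 2926 and 1526), snoRNA:Me18S-C419 was at 853, 942 and 0. The guides in other protein-coding hosts were above 0 for 6, 8 and 6 of 13 and those in non-coding hosts for 21, 22 and 24 of 32, and differences between these hosts were not tested.

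Copies that share a target position, whose names differ in the final letter, formed 13 families with 30 loci, 4 of them with 3 copies. In each family all copies lay in the same host. In 5 families a copy was listed at 0 in all groups beside a copy above 0. For snoRNA:Me28S-U3344, copy b was at 2668 in RNAi-labelled, 1947 in overexpression-labelled and 2718 in control discs, and copy a was at 0. For snoRNA:Me28S-A774, in the small-subunit protein gene RpS12, copy a was at 1082, 1084 and 517, and copy b was at 0. For snoRNA:Me28S-A2589, in the chromatin remodeller gene dom, copy b was at 80.3, 101 and 75.2 and copy c at 15.4, 27.5 and 0, with copy a at 0. A single copy thus held most of the value in several families. The sources used here do not state how reads matching more than 1 copy were assigned, so the division within a family is uncertain.

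**Figure D5:**
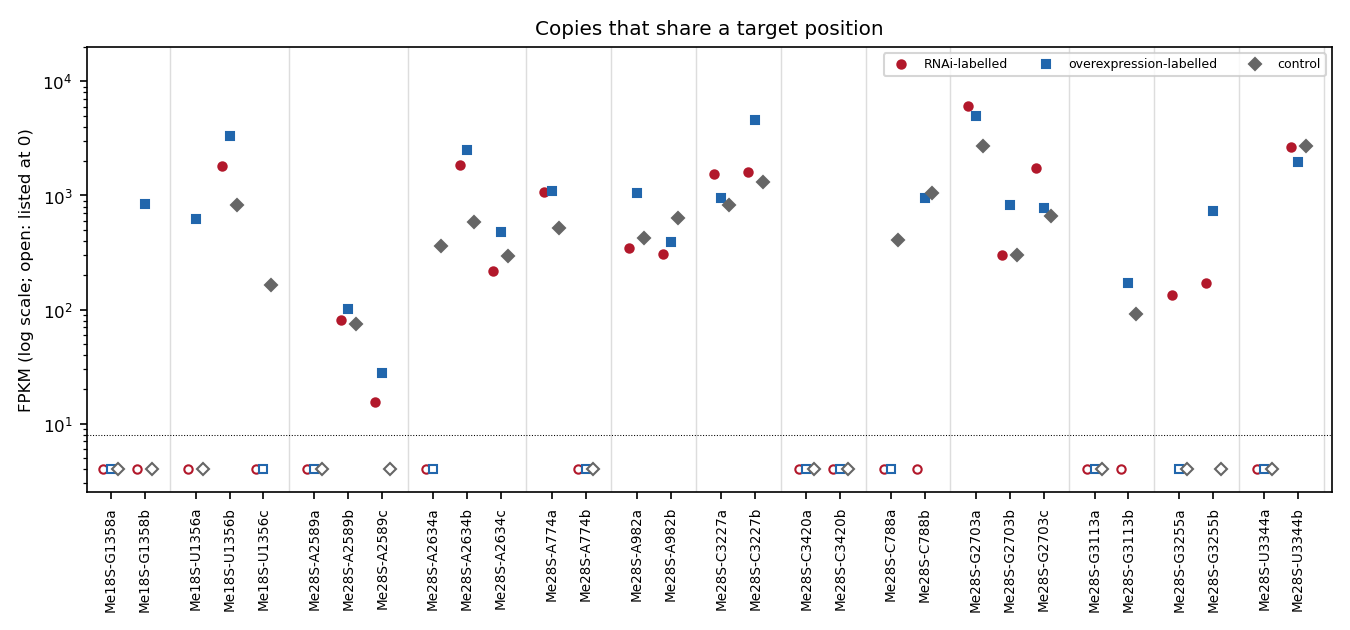
FPKM (log axis) of the 30 guides in 13 families that share a target position, with RNAi-labelled (circles), overexpression-labelled (squares) and control discs (diamonds) side by side; open symbols below the dotted line are listed at 0 and vertical lines separate families. In several families a copy is at 0 in all groups, and the copies of snoRNA:Me28S-G2703 and snoRNA:Me28S-C3227 are above 0 in all groups.

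Most of the 24 guides without a match in the annotation were listed at 0 in any given group. They were above 0 for 9 in RNAi-labelled, 8 in overexpression-labelled and 10 in control discs, with 2 above 0 in all groups, snoRNA:Me28S-C437 and snoRNA:Me28S-U1554. Their highest values were 576 in RNAi-labelled, 28.9 in overexpression-labelled and 180 in control discs. The 576 and the 180 both belong to snoRNA:Me18S-G1189, which was at 0 in overexpression-labelled discs. Without an annotated length, these values cannot be set against others of their length. The locus given in the deposited tables spans the surrounding genes and had a median of 28724 bases for these guides, against 3517 bases for the matched guides, where it was longer than the guide for 58 of 59. What feature was counted under the unmatched names is therefore uncertain.

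The proteins that form the C/D particle were not called in either comparison (0 of 4 tested in each, beside 0.822% and 1.2% of all loci). Fib, the Fibrillarin methyltransferase gene, was at 20.4 in RNAi-labelled, 22.3 in overexpression-labelled and 49.5 in control discs, with q = 0.366 and 0.433 in the authors' deposited Cuffdiff table. Nop56 was at 74.4, 85.6 and 77.3, nop5, the fly Nop58 gene, at 44.4, 47.5 and 49.6, and hoip, the 15.5 kDa protein gene, at 149.8, 196 and 136. Fib had the lower values in both treated groups, while the other three differed from control by less than 1.5-fold. Of the assembly factors, 0 of 4 were called: the ATPase genes pont (46.3, 49.1 and 43.3) and rept (36.3, 35.5 and 40.9), Nufip (2.31, 2.67 and 2.81) and spag (11.6, 9.72 and 16.8).

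For comparison, the H/ACA proteins had 0 calls of 4 and the 9 rRNA synthesis and processing genes found had 0 calls in either comparison. The H/ACA protein gene CG4038 was at 7.41 in RNAi-labelled, 8.26 in overexpression-labelled and 19.2 in control discs, lower in both treated groups as Fib was. NHP2 was at 134, 134 and 89.1, CG7637 at 191, 266 and 183, and the row joining Nop60B with guides at 312, 214 and 323. Nopp140, a nucleolar phosphoprotein gene, was at 16.2 in RNAi-labelled, 10.5 in overexpression-labelled and 30.1 in control discs. RpI135, a subunit gene of RNA polymerase I, was at 10.4, 12.1 and 8.98, and Tif-IA, its initiation factor gene, at 42.6, 49.4 and 28.9. Mybbp1A and Uhg6 had no row under these names.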

How the data were processed

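RNA of eye discs was measured in 3 groups of 2 libraries each. Mapping with TopHat and Bowtie, Cufflinks and Cuffdiff 2.1.1, on dm6, is listed in the submitters' processing notes. The sources used here do not give the other versions, the annotation, the mapping settings or the handling of reads that map to several places. The authors deposited FPKM values as 1 value per group and locus, pooled over both libraries per the file headers, so the files give no spread between libraries and no total depth. The p-value and q-value of each comparison, and a test statistic (a score), are those of the authors' deposited Cuffdiff output. The control values of both tables were identical.

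From these values, ratios were computed as treated over control, the deposited statistic of overexpression being turned to that direction. Single loci have a log2 ratio without pseudocount and none where a group is listed at 0. List medians used log2(FPKM + 0.1) over loci with a mean FPKM of 1 or more over the 3 groups, which understates low loci. A locus was called at the authors' q of 0.05 or less. Benjamini-Hochberg values were also recomputed over each table, with code tested on simulated data. Lengths, 1-based positions and hosts came from Ensembl 115 on the dm6 assembly, matched by name. The host is the shortest gene on the same strand that contains the guide, matched to the tables by symbol or RefSeq synonym. The libraries share replicate numbers, but no value per library was held, so no paired or limma fit was run.

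The members, the gene lists and the tests were chosen with earlier results of these data known. Guides were named by rule: the 5 highest per target rRNA, the 4 with the largest ratio per direction and comparison among those above 0 in all groups with a mean of 50 or more, all guides of the host with most guides, and any guide called. Others are named as members of a host cluster or of a family, and were chosen after their values were seen. The alternatives were other filters, a pseudocount of 1, recentred ratios, other thresholds and averaged copies. Computations used Python 3.11.15 with pandas 2.3.3. A result for 1 host gene is not reported here.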

Additional observations from a re-analysis of the deposited data

How the results depend on the processing

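The count of called guides was 0 in each comparison at q of 0.05, at q of 0.1, at unadjusted p of 0.05, with recomputed Benjamini-Hochberg and over loci of a single name, and the counts past 2-fold stayed within 1.5 times under the 3 alternatives run. The medians depended on how guides at 0 were treated; a move is a change of over 0.1 in log2. With no filter, the medians for RNAi were 0 over all guides and 0.25 for 18S, and those for overexpression were 0 over all guides, 0 for 18S and 0 for 28S. With a mean FPKM of 50 or more they were 0.70 over all guides for RNAi, and 0.56 over all guides and 1.01 for 18S for overexpression. At that filter the median over all 1479 loci also rose, to 0.26 for RNAi and 0.32 for overexpression. The 28S guides, at 0.09 for RNAi, lay below it. With copies averaged the medians of the guides were 0.54 over all guides for RNAi, and 0.56 over all guides and 0.61 for 28S for overexpression. With only guides above 0 in both groups, an alternative chosen after seeing the data, they were 1.14 over all guides and 0.41 for 28S for RNAi, and 0.66 over all guides, 1.48 for 18S and 0.61 for 28S for overexpression. Without the guides of Uhg5, also chosen after seeing the data, they were 0.041 over all guides for RNAi, and 0.27 over all guides and 0.043 for 18S for overexpression. A pseudocount of 1 and recentring moved no median by over 0.1. No paired analysis was possible because the tables hold 1 pooled value per group, and for the same reason no library could be left out. Depth is unknown, so no limit of detection can be given.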
